A study of Mus musculus with 10 samples.

Results

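The 10 genes described here encode the actins of the sarcomere and of the cytoplasm together with proteins that anchor, cap or turn over actin filaments. They are Acta1, Actc1, Actb, Actg1, Actn2, Actn4, Lmod2, Tmod1, Cap2 and Cfl2, taken by gene symbol from the 57185 genes with counts, and all 10 were among the 13454 genes tested. RNA of the apical part of the heart's ventricle was sequenced from 5 MLPKO and 5 MLPKO-cRADKO mice, which are male per the study and 16 weeks old per the labels, and each mouse gave 1 library. The MLPKO animals have no muscle LIM protein (MLP, the product of Csrp3), develop dilated cardiomyopathy and here carried floxed alleles of Rrad, the gene for the calcium channel regulator RAD. MLPKO-cRADKO mice lacked MLP as well and also carried MerCreMer, a tamoxifen-induced Cre recombinase under the MYH6 promoter, which is active in cardiomyocytes, so that Rrad in other cells of the tissue is left in place. Both groups received 100 mg/kg tamoxifen at 10 weeks of age, and hearts were taken 1 month later per the labels. These times do not add up to the age of 16 weeks that the labels also give, and the difference was not resolved. Cre was present in the MLPKO-cRADKO group alone, so effects of Cre and of the deletion cannot be told apart in this design. The comparison asks how the loss of RAD in cardiomyocytes changes these transcripts in hearts without MLP.

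Thin filaments of the sarcomere are polymers of muscle actin, anchored with their barbed ends at the Z-disc by α-actinin and capped at the pointed ends by tropomodulin. In the heart, the cardiac isoform encoded by Actc1 is the main muscle actin of the adult, and the skeletal isoform encoded by Acta1 belongs to the fetal gene programme that is known to return in stressed myocardium. The cytoplasmic β- and γ-actins, encoded by Actb and Actg1, form the cytoskeleton of every cell type of the tissue. Muscle and cytoplasmic actins are close to one another in sequence, and their genes are known targets of serum response factor (SRF).

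How close the isoforms are in sequence sets how well short reads can be assigned to one gene, so the first 90 coding bases of each isoform pair are shown. They were read from the GENCODE M39 transcripts, all lie in exon 2 on the minus strand of GRCm39, and the capitals mark bases that differ between the members of a pair.
Acta1, chr8:124620347-124620436: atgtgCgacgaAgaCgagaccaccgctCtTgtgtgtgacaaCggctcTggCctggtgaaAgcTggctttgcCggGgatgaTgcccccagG
Actc1, chr2:113882423-113882512: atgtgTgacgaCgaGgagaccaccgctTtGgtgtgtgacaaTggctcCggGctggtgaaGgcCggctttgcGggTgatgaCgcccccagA
Actb, chr5:142891352-142891441: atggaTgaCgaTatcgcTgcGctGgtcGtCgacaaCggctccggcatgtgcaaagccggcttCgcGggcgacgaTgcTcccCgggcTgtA
Actg1, chr11:120238828-120238917: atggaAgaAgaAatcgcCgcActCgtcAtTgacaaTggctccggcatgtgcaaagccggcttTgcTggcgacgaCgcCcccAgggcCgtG
In these stretches 14 bases differed between Acta1 and Actc1 and 16 between Actb and Actg1. Over the whole coding sequence, 155 of 1131 bases differed between Acta1 and Actc1, which changed 4 of the 377 residues. Actb and Actg1 differed at 128 of 1125 bases and at 4 of 375 residues. Between the muscle and the cytoplasmic isoforms 25 residues differed for Acta1 and Actb and 22 for Actc1 and Actg1.

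Of all 100-base windows in the annotated transcripts of each gene, none of Actc1, Actn2 and Lmod2, 1.77% of Acta1 and 0.45% of Actb occurred in the transcripts of another gene. The share was 42.06% for Actg1, mainly in predicted genes named Gm, and 18.02% for Tmod1, whose 3' end overlaps Tstd2 on the opposite strand. It was 0.31% to 2.81% for Actn4, Cap2 and Cfl2. The settings for strand and for reads shared by several genes are not given in the sources used here, so the levels of Actg1 and Tmod1 are the least certain of the 10.

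The upstream sequences of Acta1, Actc1 and Actg1 hold a CArG box, the binding motif of SRF, and are shown for that reason. The promoter of Actb was not analysed here. The 120 bases before the RefSeq transcription start (build GRCm38.p6, minus strand) are given with the CArG box in capitals.
Acta1, chr8:123894776-123894895: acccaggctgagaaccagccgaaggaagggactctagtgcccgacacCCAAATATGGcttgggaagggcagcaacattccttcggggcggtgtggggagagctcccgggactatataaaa
Actc1, chr2:114052876-114052995: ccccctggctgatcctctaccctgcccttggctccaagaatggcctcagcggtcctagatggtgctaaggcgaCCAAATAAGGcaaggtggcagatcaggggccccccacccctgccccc
Actg1, chr11:120348496-120348615: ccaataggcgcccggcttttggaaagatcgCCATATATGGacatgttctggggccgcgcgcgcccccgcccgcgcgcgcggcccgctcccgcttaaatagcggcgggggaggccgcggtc
The box began 73 bases before the annotated start in Acta1, 47 in Actc1 and 90 in Actg1. The sequence TATAAA lay at bases -7 to -2 in Acta1 and, after the annotated start, at bases 34 to 39 in Actc1. The distances depend on where the start is annotated, which was not tested, and do not serve to compare the genes. The search was for the exact pattern of CC, 6 bases of A or T, and GG, and sequences with a mismatch to it were not counted. It covered both strands of 300-base RefSeq promoters, which reach beyond the stretch shown on both sides. The exact pattern was found in 535 of 32851 (1.63%) and in none of the other 6 members in that set, Actn2, Actn4, Lmod2, Tmod1, Cap2 and Cfl2. A match in a window is a description of the sequence and says nothing of binding.

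Total counts per library lay between 33457406 and 49965101. Rrad, the gene targeted in MLPKO-cRADKO, was at 139.7 to 281.7 CPM (counts scaled to the size of the library) in MLPKO and at 134.5 to 202.3 CPM in MLPKO-cRADKO, the ranges overlapped and the difference did not pass the test (log2 fold change -0.38, edgeR adjusted p = 0.29). Csrp3, targeted in both groups, was counted at 1009 to 3261 CPM in MLPKO and 690.7 to 1177 CPM in MLPKO-cRADKO, so a count over the whole gene does not show either deletion. The library of MLPKO mouse 2 stood apart on the first principal component of all genes (35.3% of the variance), with a score of 55.7 against 22.5 for the next library. Differences without this mouse are given for Acta1, Actg1, Actn4 and the Acta1 to Actc1 ratio. Those of Actn2, Lmod2, Tmod1, Cap2 and Cfl2 were smaller in size without it. Cardiomyocyte marker genes summed to 76830 to 87620 CPM in MLPKO and 57540 to 72900 CPM in MLPKO-cRADKO, and endothelial markers to 1105 to 1281 and 1334 to 1527 CPM, without overlap of either sum. Myh6 was the largest part of the cardiomyocyte sum, with means of 36500 of 81900 CPM in MLPKO and 29890 of 68000 CPM in MLPKO-cRADKO. Gene by gene, the genotypes did not overlap for 2 of 10 cardiomyocyte and 1 of 9 endothelial markers, beside 6.62% of all genes. In whole tissue, fewer cells of a type and less RNA per cell cannot be told apart.

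In MLPKO-cRADKO hearts, the skeletal actin Acta1 fell to 34.9% of its MLPKO level while the cardiac Actc1 and both cytoplasmic actins did not pass the test. Differences per gene were tested by quasi-likelihood in edgeR, and a gene was called at a Benjamini-Hochberg adjusted p under 0.05 over the 13454 genes. By this rule 1 of the 10 members was lower (Acta1) and 0 were higher, where 1.8% of all genes tested were lower and 0.944% were higher. Normalization by library totals alone, without TMM, gave 168 lower and 182 higher genes over the whole table in place of 242 and 127. With DESeq2, 5 members were lower (Acta1, Actn2, Lmod2, Cap2 and Cfl2) and 0 higher, against 6.08% and 3.96% of all genes, and without adjustment 6 members, all of them lower, had an edgeR p under 0.05, as did 2898 of all genes in either direction. The median log2 fold change of the members was -0.34, and 8 of the 10 were below 0, beside a median of 0.01 over all genes. The CPM of the genotypes did not overlap for 1 member, Actn2, compared with 6.62% of all genes.

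**Figure D1:**
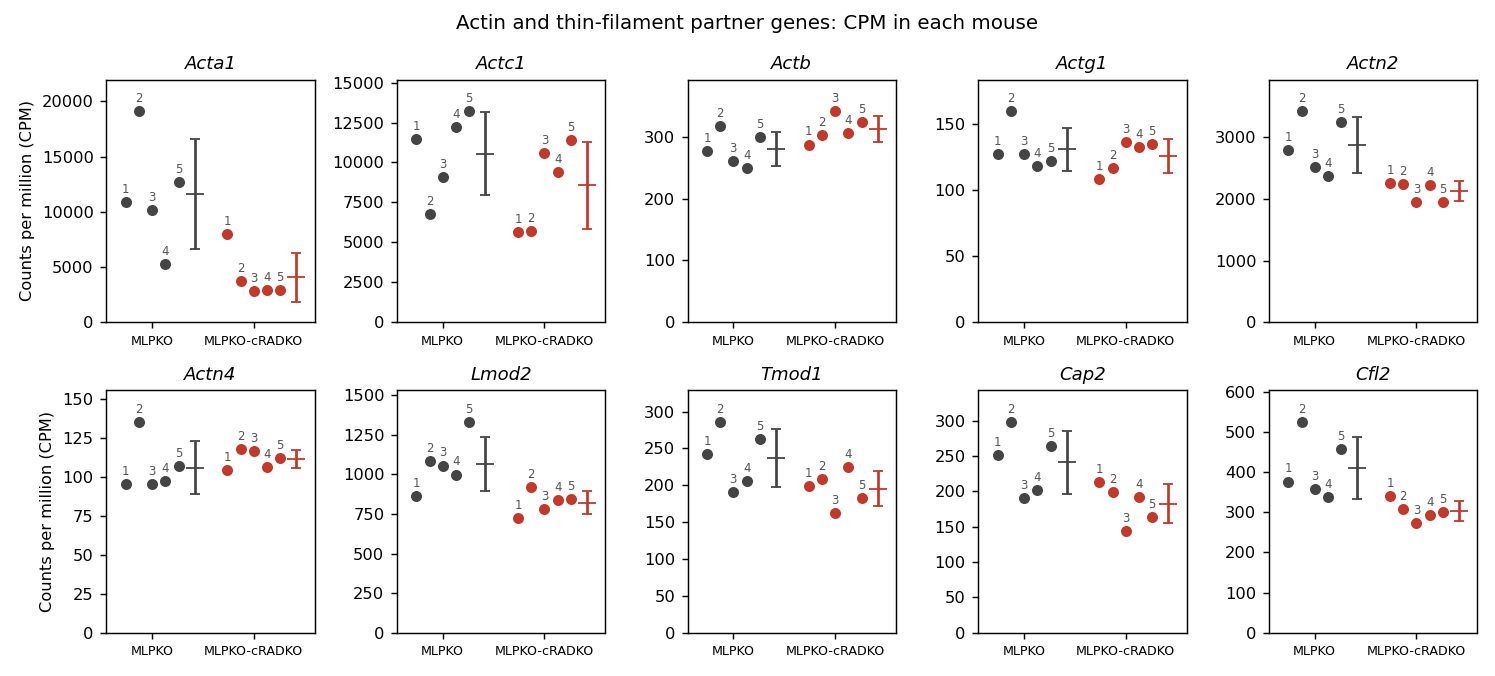
Counts scaled to library size (CPM, vertical axes from 0) of the 10 members in each of the 5 MLPKO (grey) and 5 MLPKO-cRADKO (red) mice, with mouse numbers beside the points and the mean ± SD to their right. Acta1 lay at 2809 to 3688 CPM in 4 of the MLPKO-cRADKO mice, and Actn2 was lower in every MLPKO-cRADKO mouse than in any MLPKO mouse.

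Acta1 (ENSMUSG00000031972, chr8:124618501-124623661, minus strand, GRCm39) encodes skeletal muscle α-actin. It was counted at 10840, 19100, 10150, 5300 and 12710 CPM in MLPKO mice 1 to 5 and at 8016, 3688, 2809, 2873 and 2873 CPM in MLPKO-cRADKO mice 1 to 5. The genotypes overlapped in a pair of mice, MLPKO mouse 4 below the other MLPKO mice and MLPKO-cRADKO mouse 1 above the others of its group. The mean and SD of 5 mice were 11620 ± 4998 CPM in MLPKO and 4052 ± 2246 CPM in MLPKO-cRADKO (n = 5 each), a log2 fold change of -1.52 (standard error 0.36, 95% interval -2.31 to -0.73, edgeR adjusted p = 0.0492). The call lies at the threshold. It was present in 7 of 9 other fits (adjusted p = 0.0144 to 0.0723) and in 2 of the 10 fits that left out 1 mouse, those without MLPKO mouse 4 (adjusted p = 0.02) and without MLPKO-cRADKO mouse 1 (adjusted p = 0.0227), where the others reached up to 0.12, and the difference was below 0 in all of them, from -1.93 to -1.27. Without MLPKO mouse 2 the log2 fold change was -1.27 and was not called (adjusted p = 0.0651).

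Actc1 (ENSMUSG00000068614, chr2:113876266-113884043, minus strand), the cardiac muscle α-actin, was at 11440, 6766, 9111, 12210 and 13200 CPM in MLPKO and at 5639, 5716, 10590, 9425 and 11410 CPM in MLPKO-cRADKO. The ranges overlapped over most of their width. The difference was -0.30 on the log2 scale (standard error 0.23, 95% interval -0.81 to 0.21, edgeR adjusted p = 0.489). MLPKO mouse 2, which held the highest Acta1 of all mice, had the lowest Actc1 of its group, and MLPKO-cRADKO mouse 1 combined the highest Acta1 and the lowest Actc1 of its group.

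The ratio of Acta1 to Actc1 counts within a mouse is independent of library size. It was 0.947, 2.82, 1.11, 0.434 and 0.963 in MLPKO mice 1 to 5, with a geometric mean of 1.04. In MLPKO-cRADKO mice 1 to 5 it was 1.42, 0.645, 0.265, 0.305 and 0.252, with a geometric mean of 0.451. In 3 of the MLPKO-cRADKO mice the ratio was below that of every MLPKO mouse, and mouse 1 of the group was above 4 of the 5 MLPKO mice. The mean log2 ratio was lower by 1.21 in MLPKO-cRADKO (difference -1.21, 95% interval -2.70 to 0.28), which did not pass the two-sided exact permutation test over every division of the mice into 5 and 5 (p = 0.0952, Benjamini-Hochberg adjusted over 3 ratios p = 0.0952; the smallest p possible was 0.00794). Acta1 was called and Actc1 was not, but an unequal change of the pair was therefore not shown. Leaving out single mice gave differences of -1.63 to -0.85 with exact permutation p of 0.0238 to 0.198, there without adjustment over the 3 ratios. Only the fit without MLPKO-cRADKO mouse 1 was under 0.05 (-1.63, exact permutation p = 0.0238). The difference was smallest without MLPKO mouse 2 (-0.85, exact permutation p = 0.19).

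**Figure D2:**
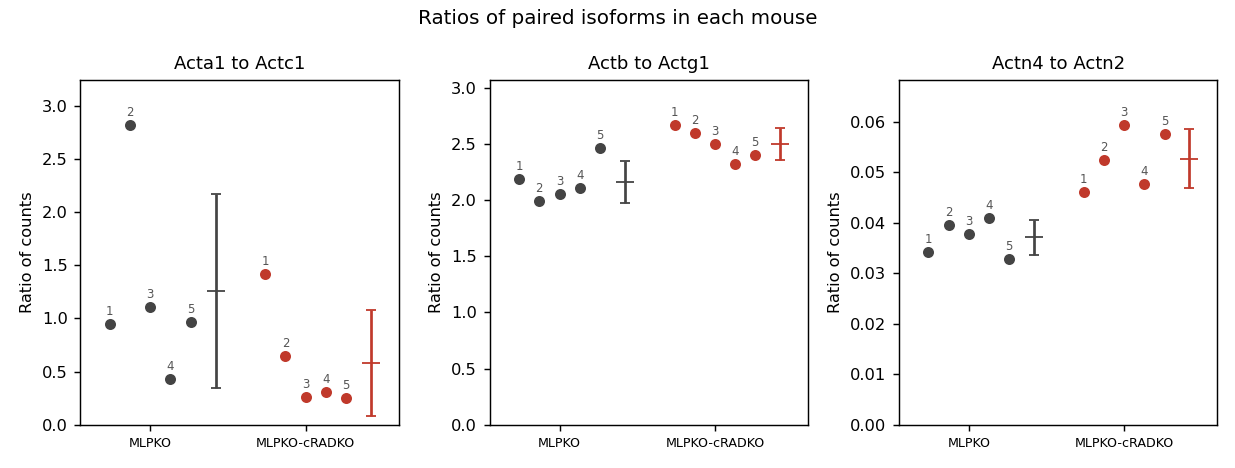
Ratio of counts (vertical axes from 0) of Acta1 to Actc1, Actb to Actg1 and Actn4 to Actn2 in each mouse, with mouse numbers above the points and the mean ± SD to their right. The Acta1 to Actc1 ratios overlapped and on this linear axis spread more in MLPKO, where mouse 2 reached 2.82. On the log2 scale of the test their SD was 0.962 in MLPKO and 1.075 in MLPKO-cRADKO. The Actn4 to Actn2 ratios of the genotypes did not overlap.

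Together the transcripts of Acta1 and Actc1 made up 2.20, 2.44, 1.95, 1.73 and 2.42% of all counts in MLPKO mice 1 to 5 and 1.35, 0.933, 1.42, 1.23 and 1.45% in MLPKO-cRADKO mice 1 to 5. The sum was thus lower in every MLPKO-cRADKO mouse than in any MLPKO mouse (2.15 ± 0.306% and 1.28 ± 0.21%, SD, n = 5 each), although neither gene on its own separated the groups. Acta1 alone accounted for 1.12 ± 0.457% and 0.407 ± 0.218% of counts. This sum was formed from members with known results and is given without a test. The cardiomyocyte marker sum, given above, also did not overlap, and its part in this difference was not tested.

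**Figure D3:**
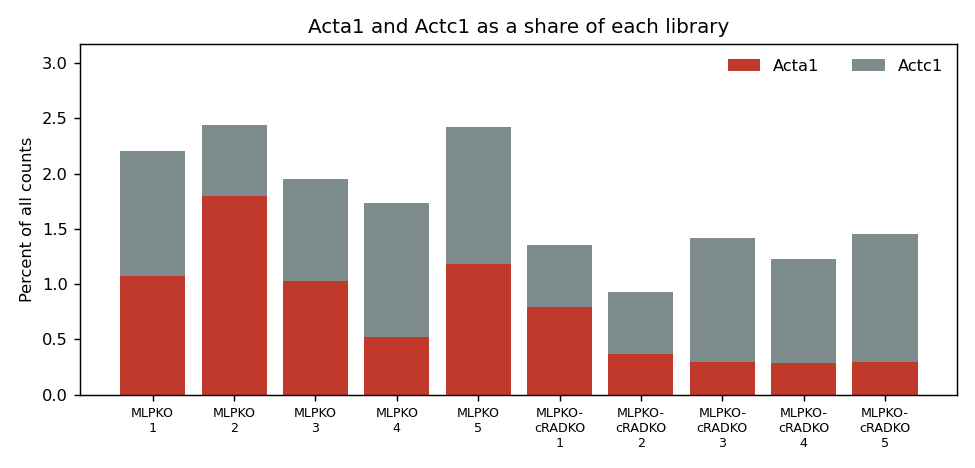
Share of all counts (percent, axis from 0) taken by Acta1 (red) and Actc1 (grey) in each of the 10 libraries. The combined bars reached 1.73 to 2.44% in MLPKO and 0.933 to 1.45% in MLPKO-cRADKO, while the division between both genes differed from mouse to mouse.

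Among the counts of the 6 actin genes, Acta1 held 49.8 ± 15.2% in MLPKO and 31.0 ± 15.9% in MLPKO-cRADKO, and Actc1 held 48.0 ± 15.1% and 64.4 ± 16.0% (SD, n = 5 each). Actb held 1.26 ± 0.102% and 2.41 ± 0.377%, and Actg1 0.586 ± 0.0799% and 0.966 ± 0.148%. The smooth muscle isoform Acta2 held 0.292 ± 0.0861% and 1.25 ± 0.624%. These shares sum to the whole, so a lower share of Acta1 raises the others without any change of their own.

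Neither cytoplasmic actin passed the test. Actb (ENSMUSG00000029580, chr5:142888870-142892509, minus strand), which encodes β-actin, was at 277.9, 317.3, 261.2, 249.5 and 300.6 CPM in MLPKO and 288.0, 303.4, 341.8, 307.1 and 323.9 CPM in MLPKO-cRADKO. These ranges overlapped, and the log2 fold change of 0.15 (95% interval -0.01 to 0.32) did not pass the test (edgeR adjusted p = 0.273). Actg1 (ENSMUSG00000062825, chr11:120236512-120239617, minus strand), which encodes γ-actin, was at 127.0, 159.6, 127.2, 118.5 and 122.1 CPM in MLPKO and 108.0, 116.6, 136.6, 132.4 and 134.7 CPM in MLPKO-cRADKO. MLPKO mouse 2 was above all other mice, and the groups overlapped otherwise. Its log2 fold change was -0.06 (95% interval -0.26 to 0.15, edgeR adjusted p = 0.771), and the sign turned to 0.02 without MLPKO mouse 2.

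Within a mouse, the ratio of Actb to Actg1 counts was 2.19, 1.99, 2.05, 2.11 and 2.46 in MLPKO and 2.67, 2.60, 2.50, 2.32 and 2.40 in MLPKO-cRADKO. MLPKO mouse 5 lay within the range of the other group, and the remaining MLPKO mice lay below it. The geometric mean rose from 2.15 to 2.50, a log2 difference of 0.21 (95% interval 0.06 to 0.36). This difference passed the two-sided exact permutation test (p = 0.0238, adjusted over 3 ratios p = 0.0357). In the 10 fits that left out 1 mouse, the exact permutation p was 0.00794 to 0.0476, there without adjustment over the 3 ratios. Neither gene was called by itself, and 42.06% of the Actg1 windows are shared with other transcripts. The endothelial marker sum was higher in every MLPKO-cRADKO mouse, and its part in this ratio was not tested.

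The α-actinins cross-link actin filaments, Actn2 at the sarcomeric Z-disc and Actn4 in non-muscle structures. Actn2 (ENSMUSG00000052374, chr13:12281303-12356693, minus strand) was at 2786, 3421, 2521, 2371 and 3247 CPM in MLPKO and 2260, 2247, 1956, 2233 and 1953 CPM in MLPKO-cRADKO. All 5 MLPKO-cRADKO mice were below all 5 MLPKO mice. The log2 fold change was -0.43 (standard error 0.11, 95% interval -0.66 to -0.20) with an edgeR adjusted p of 0.0544, just outside the threshold, and a DESeq2 adjusted p of 0.00292.

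Actn4 (ENSMUSG00000054808, chr7:28592672-28661839, minus strand) was at 95.53, 135.1, 95.38, 97.05 and 106.7 CPM in MLPKO and 104.2, 117.9, 116.3, 106.5 and 112.3 CPM in MLPKO-cRADKO. The ranges overlapped, with MLPKO mouse 2 the highest of all (log2 fold change 0.07, 95% interval -0.13 to 0.28, edgeR adjusted p = 0.707). Without that mouse the log2 fold change was 0.18 (adjusted p = 0.124). The ratio of Actn4 to Actn2 counts was 0.0343, 0.0395, 0.0378, 0.0409 and 0.0329 in MLPKO and 0.0461, 0.0525, 0.0594, 0.0477 and 0.0575 in MLPKO-cRADKO. It was higher in every MLPKO-cRADKO mouse than in any MLPKO mouse, by 0.50 on the log2 scale (95% interval 0.29 to 0.72, 1.42-fold; two-sided exact permutation test, p = 0.00794, the smallest possible, adjusted over 3 ratios p = 0.0238). Leaving out any mouse kept the difference between 0.46 and 0.55. Groups that do not overlap stay apart when a mouse is left out, so the separation in these fits was fixed in advance. The cardiomyocyte marker sum was lower and the endothelial marker sum higher in MLPKO-cRADKO, and the part of either in this ratio was not tested.

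Leiomodin-2 (Lmod2) nucleates and elongates thin filaments, and tropomodulin-1 (Tmod1) caps their pointed ends. Lmod2 (ENSMUSG00000029683, chr6:24597685-24605753, plus strand) was at 865.0, 1086, 1055, 998.1 and 1329 CPM in MLPKO and 723.7, 920.8, 777.7, 835.9 and 843.7 CPM in MLPKO-cRADKO. Only MLPKO mouse 1 and MLPKO-cRADKO mouse 2 crossed into the other group's range. The log2 fold change was -0.38 (95% interval -0.61 to -0.15, edgeR adjusted p = 0.0728, DESeq2 adjusted p = 0.0133). Tmod1 (ENSMUSG00000028328, chr4:46038541-46116036, plus strand) was at 242.6, 285.8, 190.6, 206.2 and 263.0 CPM in MLPKO and 199.7, 208.1, 162.9, 224.5 and 182.4 CPM in MLPKO-cRADKO, with overlap. Its log2 fold change was -0.28 (95% interval -0.54 to -0.02) and passed neither test (edgeR adjusted p = 0.195, DESeq2 adjusted p = 0.137).

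Cap2 and Cfl2 encode muscle-enriched factors of filament turnover, cyclase-associated protein 2, which acts on actin monomers, and cofilin-2, which severs filaments. Cap2 (ENSMUSG00000021373, chr13:46655324-46803773, plus strand) was at 251.7, 298.1, 190.7, 201.3 and 263.7 CPM in MLPKO and 213.0, 199.1, 144.6, 192.1 and 163.6 CPM in MLPKO-cRADKO. The overlap involved MLPKO mice 3 and 4, and the log2 fold change was -0.40 (95% interval -0.70 to -0.10, edgeR adjusted p = 0.117, DESeq2 adjusted p = 0.0455). Cfl2 (ENSMUSG00000062929, chr12:54905587-54909886, minus strand) was at 376.7, 524.8, 358.4, 339.1 and 456.6 CPM in MLPKO and 341.3, 307.9, 273.6, 292.9 and 300.5 CPM in MLPKO-cRADKO. The groups touched only where MLPKO mouse 4 lay just below MLPKO-cRADKO mouse 1. The log2 fold change was -0.44 (95% interval -0.69 to -0.19, edgeR adjusted p = 0.0624, DESeq2 adjusted p = 0.00757). Without MLPKO mouse 4, Actn2 and Cfl2 were called together with Acta1 (edgeR adjusted p = 0.0244, 0.0315 and 0.02).

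**Figure D4:**
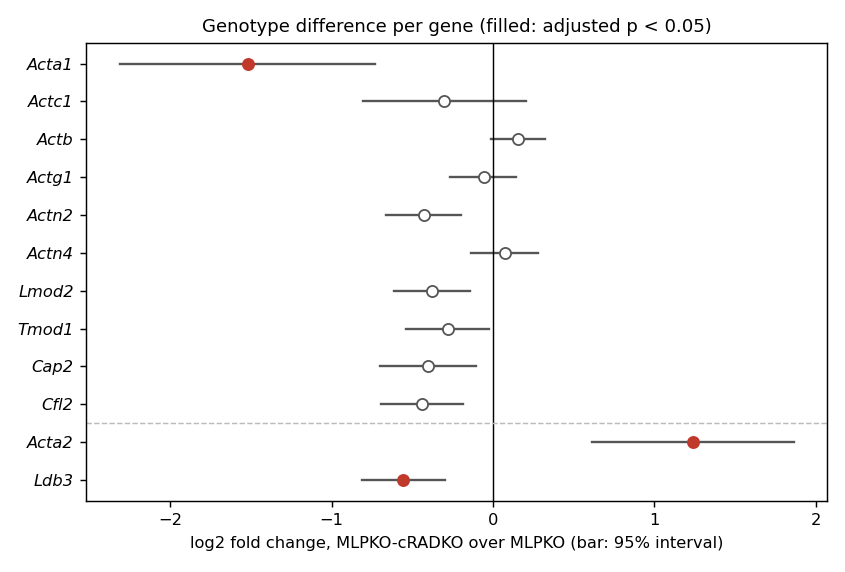
Log2 fold change of MLPKO-cRADKO over MLPKO with its 95% interval for the 10 members and, below the dashed line, for Acta2 and Ldb3. Filled points passed the edgeR test, which among the members was Acta1 at -1.52, while the intervals of Actn2, Lmod2, Tmod1, Cap2 and Cfl2 lay below 0 without passing.

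Within the genotypes the mice fell in a common order for several members. In MLPKO the order from the highest to the lowest CPM was mouse 2, 5, 1, 3 and 4 for Acta1, Actb, Actn2 and Cfl2, which is also their order on the first principal component of all genes. In MLPKO-cRADKO the order of Acta1 and of Cap2 was mouse 1, 2, 4, 5 and 3, again that of the component, with Acta1 equal to the digits shown in mice 4 and 5. Actb and Actg1 had the reverse of that order in MLPKO-cRADKO, mouse 3, 5, 4, 2 and 1, so Actb followed the component in MLPKO alone. Actc1 ran otherwise, with mouse 5 highest in both genotypes and mouse 2 of MLPKO and mouse 1 of MLPKO-cRADKO lowest. The spread relative to the mean was wider in MLPKO for 8 of the members. Acta1 and Actc1 were the exceptions, with coefficients of variation of 43.0 and 24.6% in MLPKO and 55.4 and 31.8% in MLPKO-cRADKO.

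To compare levels between genes, CPM were divided by length. Per kilobase of the union of exons, Acta1 was highest in MLPKO (3128 ± 1345 CPM per kb, SD, n = 5), followed by Actc1 (1821 ± 448), Lmod2 (446 ± 70.8), Actn2 (265.6 ± 42.01), Cfl2 (113 ± 21.4) and Actb (96.2 ± 9.52). Tmod1 (44.5 ± 7.35), Actg1 (43.5 ± 5.48) and Cap2 (41.4 ± 7.67) did not differ beyond their spread, and Actn4 was lowest (12.4 ± 1.98). In MLPKO-cRADKO Actc1 (1477 ± 470 CPM per kb) came before Acta1 (1091 ± 604), again within their spread. With the length of the canonical transcript instead, Acta1 was at 7051 ± 3032 and Actc1 at 2893 ± 712 CPM per kb in MLPKO and at 2459 ± 1363 and 2347 ± 746 in MLPKO-cRADKO. The mean of Acta1 thus came first in MLPKO with either length, although by the union of exons both genes lay within their spread there too. In MLPKO-cRADKO the order of both genes, which lay within their spread, turned with the length used.

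The genes whose log2 CPM followed Acta1 most closely over the 10 mice were Prune2 (Pearson r = 0.98, and 0.945 after removing the genotype means), Csdc2 (0.975 and 0.933), Rab27b (0.974 and 0.945), Prnp (0.973 and 0.931) and Setd7 (0.971 and 0.92). Prune2 was itself lower in MLPKO-cRADKO, from 530.7 to 288.0 CPM on average (log2 fold change -0.88, edgeR adjusted p = 0.0305). For Actb the closest were Basp1 (0.933 and 0.905), Il1r1 (0.918 and 0.875), Tpm4 (0.913 and 0.886), Or51e1 (0.909 and 0.866) and Mecom (0.903 and 0.882), and none of these was called. They were picked as the highest of all genes tested, share their libraries and are given as a description only.

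Beyond the members, 82 of 86 listed actin filament genes were tested, of which edgeR called 1 lower (Ldb3) and 1 higher (Acta2) and DESeq2 called 14 lower and 2 higher. The median log2 fold change of these 82 genes was -0.04. Over all genes, edgeR called 1.8% lower and 0.944% higher, and DESeq2 called 6.08% and 3.96%. An unadjusted edgeR p under 0.05, in either direction, was held by 2898 of the 13454 genes. The counts of the lists below stand beside these shares. Genes named below because DESeq2 called them, and Actg2, Srf, Cnn1, Cspg4 and Myh11, were chosen after their values had been seen.

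Among the other actins, Acta2, which marks smooth muscle cells and myofibroblasts, was at 80.41, 84.36, 30.38, 65.79 and 70.45 CPM in MLPKO and 158.2, 227.4, 167.2, 148.5 and 80.22 CPM in MLPKO-cRADKO. MLPKO-cRADKO mouse 5 lay within the MLPKO range, and the other 4 were above it. Acta2 rose by 1.24 on the log2 scale (standard error 0.29, 95% interval 0.61 to 1.86, edgeR adjusted p = 0.0461), a call present in 6 of 9 other fits (adjusted p = 0.00669 to 0.0665) and in 4 of the 10 fits without 1 mouse (adjusted p = 0.0427 to 0.0964), those without MLPKO mouse 2, 3 or 4 or MLPKO-cRADKO mouse 5. Actg2, the enteric isoform, was near the limit of detection (0.94 ± 0.686 and 0.487 ± 0.294 CPM, SD, n = 5 each). The smooth muscle and pericyte markers, which include Acta2, summed to 532.6 to 762.8 CPM in MLPKO and 692.5 to 916.9 CPM in MLPKO-cRADKO, with Acta2 and the pericyte gene Rgs5 called higher among 7 tested. Of the 7, 3 were below 0, and the median log2 fold change of the list was 0.01. Cnn1 and Cspg4 were lower at an unadjusted p under 0.05 (log2 fold change -2.17 and -0.74, edgeR adjusted p = 0.102 and 0.151), and the smooth muscle myosin gene Myh11 was at 0.01. Their part in the change of Acta2 was not tested.

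Of the Z-disc anchoring genes all 19 tested were below 0, with a median log2 fold change of -0.45, and edgeR called 1, while 13 were lower at an unadjusted p under 0.05. The cardiomyocyte marker sum was lower in every MLPKO-cRADKO mouse than in any MLPKO mouse, and its part in this was not tested. The gene called was Ldb3, the gene for the α-actinin-binding protein ZASP or Cypher, at 1701, 2017, 1421, 1395 and 1740 CPM in MLPKO and 1318, 1174, 926.8, 1160 and 1053 CPM in MLPKO-cRADKO. The genotypes did not overlap (log2 fold change -0.55, standard error 0.12, edgeR adjusted p = 0.0334). Ldb3 was called in 9 of 9 other fits and in 4 of the 10 fits without 1 mouse (adjusted p = 0.0206 to 0.0935), those without MLPKO mouse 2, 3 or 4 or MLPKO-cRADKO mouse 1. DESeq2 called 5 of the list lower, namely Ldb3, Synpo, Mypn, Pdlim1 and Pdlim5.

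For the genes of filament length and nucleation, 0 of 15 were called by edgeR (2 lower at an unadjusted p under 0.05) and 2 were lower by DESeq2 (Diaph1 and Diaph2), with a median of -0.06. The members of this list with the highest counts, the nebulin relative Nebl and the formin Fhod3, had log2 fold changes of -0.25 and -0.14 (edgeR adjusted p = 0.287 and 0.429). The 27 genes of filament turnover had a median of 0.13 and 0 edgeR calls (6 lower and 5 higher at an unadjusted p under 0.05). DESeq2 called Coro6, Twf2, Scin and Limk2 lower and the monomer-binding thymosin gene Tmsb4x higher. The severing protein gene Gsn, the most abundant of the list, was at 1193 ± 84.4 and 1424 ± 164 CPM (log2 fold change 0.26, edgeR adjusted p = 0.115), and Coro6 at 328 ± 20.6 and 286.8 ± 15.9 CPM (-0.19, edgeR adjusted p = 0.101).

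The 9 genes of the Arp2/3 complex, which nucleates branched filaments, had 0 edgeR calls (2 lower and 1 higher at an unadjusted p under 0.05) and a median of 0.03, and DESeq2 called Arpc2 and Arpc5l lower. Arpc2 had a log2 fold change of -0.22 and Actr3 of -0.01 (edgeR adjusted p = 0.0985 and 0.948). Among 10 regulators of actin genes, 0 were called by edgeR and 1 by DESeq2 (Tead1, lower, also the only one with an unadjusted p under 0.05). Srf was at 109.7 ± 11.4 CPM in MLPKO and 112.1 ± 5.56 CPM in MLPKO-cRADKO (log2 fold change 0.03, 95% interval -0.13 to 0.19), while the regulators with the highest counts, Fhl2 and Ablim1, had log2 fold changes of 0.01 and -0.09 (edgeR adjusted p = 0.959 and 0.456).

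**Figure D5:**
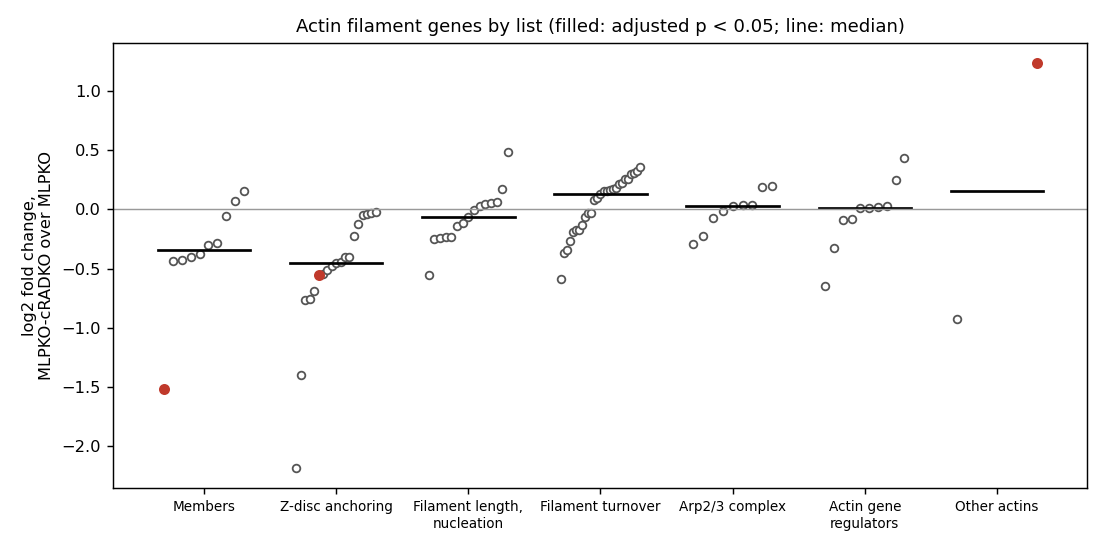
Log2 fold change of MLPKO-cRADKO over MLPKO for the 10 members and for each tested gene of the 6 partner lists, with a line at the median of each list and filled points for edgeR adjusted p under 0.05. The Z-disc anchoring genes lay below 0 with a median of -0.45, the turnover genes spread to both sides of 0, and Acta2 stood highest at 1.24.

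Markers of skeletal muscle were checked because Acta1 is the main actin of that tissue. Of 14 markers, Myh4 and Pax7 were at 0 in every library and Myh1 and Tnnc2 had at most 2 counts. The summed level was 37.36 to 205.1 CPM in MLPKO and 48.87 to 216.9 CPM in MLPKO-cRADKO, nearly all of it Casq1. Atrial markers summed to 5.63 to 20.5 and 6.69 to 38.9 CPM.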

How the data were processed

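Ventricular RNA was enriched for polyadenylated transcripts and sequenced as 1 library per mouse. For the deposited raw counts, the authors used STAR for alignment to GRCm39 and featureCounts for counting per gene (versions not given in the sources used here). Symbols and positions come from GENCODE M39. A gene entered the fit if over 10 counts were reached in 6 or more of the 10 mice and its name was no predicted-gene name (Gm followed by a digit, or ending in Rik), which left 13454. Counts were normalized by TMM and compared with edgeR 4.0.16 in R 4.3.3, and DESeq2 1.42.0 and limma 3.58.1 were alternatives. The fit was tested on simulated data. Ratios of counts were compared with exact permutation tests that ran through every split of the mice, and the procedure was checked against scipy 1.17.1. Intervals of ratios assume normal log2 values. The age is 16 weeks per the labels and is stated differently in the study.

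The members and all gene lists were chosen with earlier results of these data known. The genes named are the 10 members, from each partner list those with an edgeR adjusted p under 0.05 (at most 6), or otherwise the 2 with the highest mean count, and the 5 genes most like Acta1 and Actb. Other genes are marked in the text as chosen after their values had been seen. Alternatives were other size factors, other filters, robust dispersion, the mouse number as a block, linear ratios and leaving out each mouse.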

Additional observations from a re-analysis of the deposited data

Results flagged for a closer look

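In each genotype of 5 mice, the highest or lowest value was set against the others by its gap over the whole range (critical value 0.71), and 4 of 46 groups examined were past it, where chance passes about 1 in 20. Acta1 in MLPKO-cRADKO mouse 1 was at 8020 CPM, above the others of its group (gap over range 0.831). Actg1 and Actn4 in MLPKO mouse 2 were at 160 and 135 CPM, above the others of that group (0.787 and 0.714). The ratio of Acta1 to Actc1 in MLPKO mouse 2 was 2.82 (0.715). MLPKO mouse 2 is the library that stood apart on the first principal component.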

How the results depend on the processing

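The number of members called lower was 1, and it was 5 with DESeq2, 2 with library totals only, and 0 with robust dispersion or with Gm and Rik genes kept. Leaving out 1 mouse gave 0 to 3, with 0 in 8 of the 10 fits. No member was called higher under any of these settings. The partner genes called were 2, but 16 with DESeq2, 1 with limma-voom, 1 with robust dispersion and 0 to 9 without 1 mouse. Over all genes, 242 were lower and 127 higher, against 786 and 512 with DESeq2, 35 and 12 without MLPKO mouse 5, 35 and 15 without MLPKO-cRADKO mouse 5, and 531 and 295 without MLPKO mouse 4. The causes were not tested. The log2 fold change of Actg1 turned from -0.06 to 0.004 with library totals only, and ranged from -0.092 to 0.023 without 1 mouse, above 0 without MLPKO mouse 2 alone. The difference in the log2 Acta1 to Actc1 ratio ranged from -1.63 to -0.85 without 1 mouse. Without 1 mouse, the exact permutation p of the Actb to Actg1 ratio stayed under 0.05 in every fit. That of Actn4 to Actn2 was 0.00794 in each, and was bound to be under 0.05 because the groups did not overlap. These p were not adjusted over the 3 ratios, and that of Actb to Actg1 reached 0.0476. With the mouse number as replicate block, Acta1 was called (adjusted p = 0.0395) and 1 partner gene was called in place of 2, but same-numbered mice did not deviate together (correlations of -0.0443 to 0.152), so the numbers do not pair the mice.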

Other observations

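Other cell types of the tissue were followed by marker lists. Of 10 cardiomyocyte genes 9 were below 0 (median log2 fold change -0.21) and Tnnt2, the gene for cardiac troponin T, fell by 0.57 on the log2 scale (edgeR adjusted p = 0.0185), and it was the only one called by edgeR. All 9 endothelial markers were above 0 (median 0.22), with 0 called by edgeR, 7 higher at an unadjusted p under 0.05 and 3 called by DESeq2 (Fabp4, Kdr and Tie1). All 9 leucocyte markers tested were above 0 (median 0.61), with 0 called by edgeR, 8 higher at an unadjusted p under 0.05 and 4 called by DESeq2 (Adgre1, Csf1r, Itgam and Lyz2), and they summed to 160.5 to 232.1 CPM in MLPKO and 194.3 to 432.2 CPM in MLPKO-cRADKO. Fibroblast markers were split, 4 below and 4 above 0, with Dpt, the gene for the matrix protein dermatopontin, rising from 53.8 ± 4.75 to 102.7 ± 18.8 CPM (log2 fold change 0.93, edgeR adjusted p = 0.00664), and summed to 1335 to 1917 and 1156 to 2039 CPM. Erythroid genes summed to 288.4 to 2798 CPM in MLPKO and 409.1 to 1978 CPM in MLPKO-cRADKO. Over all genes, edgeR called 1.8% lower and 0.944% higher, and DESeq2 called 6.08% and 3.96%. An unadjusted edgeR p under 0.05, in either direction, was held by 2898 of the 13454 genes. Genes named here because a test called them were chosen after their values had been seen.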
